A study of Mus musculus with 11 samples.

Results

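The 7 genes described here are 6 genes of Fc receptors and their shared signalling chain (Fcgr1, Fcgr2b, Fcgr3, Fcgr4, Fcer1g and Fcgrt) and Fcrls, an Fc receptor-like gene. They were chosen by name, not by their values, from the 22609 genes listed in the count table, and all 7 were among the 17557 genes that had at least 10 counts over all libraries and were tested. Their expression was measured by bulk RNA-seq of polyadenylated RNA in 11 libraries labelled cerebellar hemisphere, from untreated mice of both sexes in 1 batch. Control mice (n = 3) carried floxed Nfasc and Ank3 alleles without Cre by the labels and the methods, although the results text of the study writes their genotype with Pcp2-Cre. NFKO mice (Pcp2-Cre;NfascFx/Fx, n = 3) were to lose Nfasc, AnkGKO mice (Pcp2-Cre;AnkGFx/Fx, n = 2) Ank3, which encodes Ankyrin G, and DKO mice (Pcp2-Cre;NfascFx/Fx;AnkGFx/Fx, n = 3) both. Pcp2-Cre is known to drive recombination mainly in Purkinje cells, and none of the 7 genes was itself targeted. Whether the cells that express them kept Nfasc and Ank3 was not measured. The labels give the age as postnatal day 30 in one field and 32 in another, and the strain as C57BL/6J in one and a mixed C57BL/6J;129 background in another.

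Fc receptors bind the constant part of antibodies. In the mouse, Fcgr1, Fcgr3 and Fcgr4 encode activating receptors for immunoglobulin G, which signal through the common gamma chain encoded by Fcer1g. This small protein carries an ITAM, the phosphorylation motif that recruits the kinase Syk. Fcgr2b encodes the inhibitory receptor, whose ITIM recruits phosphatases and dampens that signal. Fcgrt encodes the heavy chain of the neonatal Fc receptor FcRn, which pairs with beta-2 microglobulin, the product of B2m, and returns immunoglobulin G and albumin from endosomes to the cell surface. It is found in endothelium as well as in phagocytes. Fcrls encodes a secreted scavenger receptor-like protein with immunoglobulin domains. In the mouse brain it is known as a marker of microglia, the resident macrophages, and the activating receptors, Fcer1g and Fcgr2b are also mainly expressed by myeloid cells there.

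Fcgr2b, Fcgr4, Fcgr3 and Fcer1g lie within 276 kb of each other on chromosome 1 of GRCm39, the build of the count table. Fcgr2b is at chr1:170786186-170804177 on the minus strand, Fcgr4 at chr1:170846466-170857330 on the plus strand, Fcgr3 at chr1:170878738-170893549 on the minus strand and Fcer1g at chr1:171057141-171062219 on the minus strand. Nfasc is on the same chromosome, 38.1 Mb away from the nearest of them. Fcrls (chr3:87156616-87181827, minus strand, named Fcrl2 in GENCODE vM39) and Fcgr1 (chr3:96190225-96201338, minus strand) are 9.01 Mb apart on chromosome 3, and Fcgrt is at chr7:44742412-44756819 on the minus strand.

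Fcgr2b and Fcgr3 are close copies of each other. Their coding sequences were identical at 85.1% of 777 aligned bases, whereas the other pairs among Fcgr1, Fcgr2b, Fcgr3, Fcgr4 and Fcrls reached 59.2% to 66.2%. The stretch that holds their longest identical run, 129 bases, is shown here from the coding exons of GRCm39 because it is where the copies are most alike. It runs from coding base 248 to 436 in Fcgr2b and from 233 to 421 in Fcgr3, and capitals mark the 5 bases at which the copies differ.
Fcgr2b: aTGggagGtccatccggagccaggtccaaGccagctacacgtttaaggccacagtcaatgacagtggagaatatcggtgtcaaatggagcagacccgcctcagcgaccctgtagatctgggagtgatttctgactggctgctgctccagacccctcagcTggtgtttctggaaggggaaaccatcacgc
Fcgr3: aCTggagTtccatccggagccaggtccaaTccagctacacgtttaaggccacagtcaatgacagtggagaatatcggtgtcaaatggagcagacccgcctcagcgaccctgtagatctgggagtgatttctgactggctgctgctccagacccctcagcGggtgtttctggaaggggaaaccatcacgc
Over the whole transcript, 166 words of 50 bases occurred in both genes. In all, 11.1% of the words of the Fcgr3 transcript and 13.8% of those of Fcgr2b also occurred in another gene, and none of the words of the other 5 members did. These are shares of words, not of reads, and how many reads of Fcgr2b and Fcgr3 were left unassigned or split between them was not measured, so that their levels are less certain than those of the other members. Fcgr2b also overlaps a predicted gene on the other strand, as do Fcgr4 and Fcgrt. The libraries were strand-specific, but the strand setting of the counting is not given in the sources used here.

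Gene reads per library numbered 38890851 to 55822361, so that 3 counts, the floor used here, equal 0.0546 to 0.078 CPM, the reads of a gene relative to all gene reads of its library after scaling by edgeR's TMM factors, for counting error only. Ank3 was at 353 to 375 CPM in control and 385 to 407 in NFKO, and at 156 to 200 in AnkGKO and 160 to 185 in DKO, below every library with intact Ank3. Nfasc, counted over the whole gene in all cells of the tissue, was at 661 to 718 CPM in control and 622 to 701 in NFKO. These ranges overlap, so that Nfasc reads do not check the NFKO label. In DKO it was at 559 to 606 CPM, below every control library, and in AnkGKO at 717 and 953. Pcp2 and Gabra6, markers of the labelled tissue, were clear in control replicate 1 and NFKO replicate 1. Both were low or near absent in the other 9 libraries, which include every AnkGKO and DKO library. Pcp2, a Purkinje cell gene, was at 26.3 CPM in control replicate 1 and 28.3 in NFKO replicate 1 but at 0.0929 to 2.14 in the other 9 libraries, and Gabra6, a granule cell gene, was at 84.2, 59.0 and 0.0186 to 4.41 CPM in the same order. In the AnkGKO and DKO libraries Pcp2 was at most at 0.374 CPM and Gabra6 at most at 1.61, so that these markers do not bear out the label of cerebellar hemisphere there. The whole marker lists were lower but not absent. The Purkinje cell list summed to 1060 CPM in control replicate 1, 1160 in NFKO replicate 1 and 262 to 381 in the other 9 libraries. The granule cell list summed to 611, 519 and 107 to 167 CPM in the same order. The results below are therefore also given without control replicate 1 and NFKO replicate 1 where a value turns on them. The 17 microglia genes checked were all present, from 568 to 808 CPM in sum. In bulk tissue fewer microglia and less RNA per microglial cell cannot be told apart.

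Levels were compared between genes per kb of transcript, since a longer transcript yields more reads. In control, Fcgrt stood first at 9.93 ± 1.37 CPM per kb (SD, n = 3), above every other member in each library. Fcrls at 6.68 ± 1.58, Fcer1g at 6.06 ± 1.63 and Fcgr3 at 5.23 ± 0.738 followed, and neighbours in this trio overlapped. Fcgr1 at 1.36 ± 0.19, Fcgr2b at 0.924 ± 0.252 and Fcgr4 at 0.274 ± 0.0771 CPM per kb came last, each separated from the next by its range.

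The other 6 members kept this order by their means in NFKO, and Fcrls left its place. In NFKO, Fcgrt was at 12.3 ± 1.62 CPM per kb, Fcer1g at 8.95 ± 0.747, Fcgr3 at 7.45 ± 0.755 and Fcgr1 at 1.68 ± 0.112 (SD, n = 3). Fcrls came only after these, at rank 5, at 1.39 ± 0.192 CPM per kb, with a range that did not reach that of Fcgr1. In AnkGKO, Fcrls had rank 4 at 2.83 ± 0.149 CPM per kb (SD, n = 2), and Fcgrt, Fcgr3 and Fcer1g overlapped at 9.71 ± 0.881, 9.55 ± 2.25 and 9.43 ± 0.967. In DKO the first 4 members overlapped in order, from Fcgrt at 8.77 ± 0.988 to Fcrls at 5.50 ± 3.27 CPM per kb (SD, n = 3). With all annotated exons merged in place of 1 transcript per gene, Fcer1g exchanged places with Fcrls in control and with Fcgrt in NFKO and DKO, and stood first in AnkGKO.

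**Figure D1:**
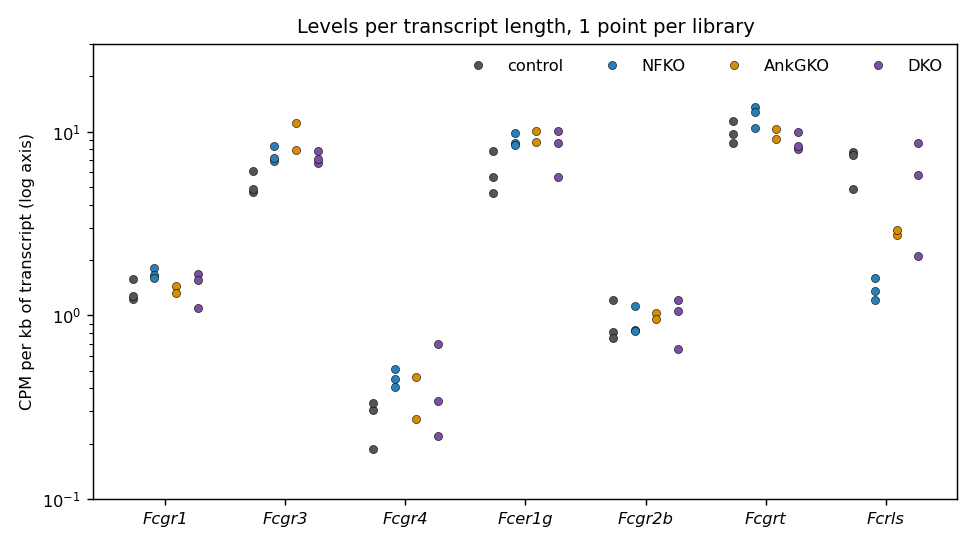
Level of each member per kb of transcript (CPM per kb, log axis), 1 point per library, coloured by genotype. By the means, Fcgrt lies highest and Fcgr4 lowest in all 4 genotypes, and Fcrls lies at 6.68 in control and 1.39 CPM per kb in NFKO.

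The question of the comparisons was whether each knockout differed from control, and DKO from each single knockout, in the expression of these genes. The log2 fold change (log2FC) of each gene came from the quasi-likelihood test of edgeR, and its p was adjusted over all genes tested by the Benjamini-Hochberg procedure. A gene was called where the adjusted p was under 0.05 and the log2FC was at least 0.6 in either direction. By this rule 0 of 7 members were called in NFKO against control, where 0.365% of all genes were. Of the 7, 4 had an unadjusted p under 0.05 (7.69% of all genes), and DESeq2 with a local dispersion fit, the test named in the methods of the study, called 1, Fcrls (0.906% of all genes). In AnkGKO against control 0 of 7 were called (0.165% of all genes), 3 had an unadjusted p under 0.05 (5.39%), and DESeq2 called 1, Fcgr3 (0.581%). In DKO against control 0 of 7 were called (0.0228% of all genes), 1 had an unadjusted p under 0.05 (7.77%), and DESeq2 called 0 (0.251%).

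The comparisons between knockouts gave a like count. In DKO against NFKO, edgeR called 0 of 7 members (0.615% of all genes), 2 had an unadjusted p under 0.05 (16.2%), and DESeq2 called 1, Fcrls (2.38%). In DKO against AnkGKO, edgeR called 0 of 7 (0.171% of all genes), 1 had an unadjusted p under 0.05 (8.48%), and DESeq2 called 0 (0.564%). For the interaction, which asks whether DKO differs from the sum of both single knockout effects, edgeR called 0 of 7 (0.53% of all genes), 4 had an unadjusted p under 0.05 (10.3%), and DESeq2 called 2, Fcgr3 and Fcrls (1.81%). All comparisons with control share the same 3 control libraries. The median log2FC of the 7 members was 0.308 in NFKO, 0.0986 in AnkGKO and 0.0832 in DKO, against -0.00495, -0.00505 and -0.000624 over all genes tested.

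**Figure D2:**
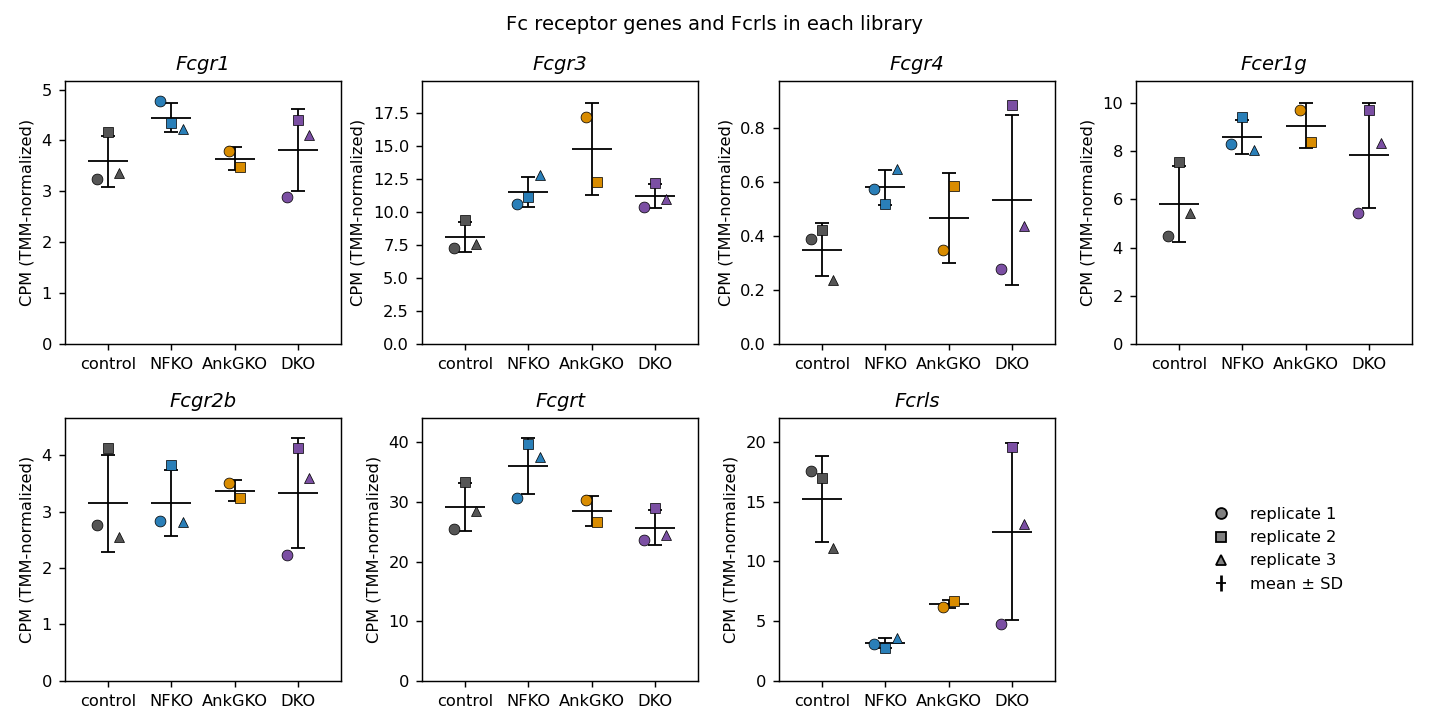
TMM-normalized CPM of the 7 members in each of the 11 libraries, with symbols for the replicate number of the labels, a horizontal bar for the mean and an error bar for the SD (n = 3, but n = 2 in AnkGKO). Fcgr3 in the 8 knockout libraries sits between 10.4 and 17.2 CPM, above the control libraries, and Fcrls in NFKO sits between 2.75 and 3.62 CPM, below all other libraries.

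Among the activating receptors, Fcgr3, which encodes a low-affinity receptor for immune complexes, was higher than every control library in all 8 knockout libraries. It was at 7.28, 9.38 and 7.57 CPM in control, 10.6, 11.1 and 12.8 in NFKO, 17.2 and 12.3 in AnkGKO, and 10.4, 12.2 and 11 in DKO. The highest value was that of AnkGKO replicate 1, and the other 7 knockout libraries lay between 10.4 and 12.8 CPM. In a single comparison with control, 7.42% of all genes had every NFKO library above every control library, 11.7% every AnkGKO library and 7.65% every DKO library.

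For Fcgr3 the log2FC against control was 0.868 in AnkGKO (standard error 0.161, 1.82-fold, unadjusted p = 0.00017), which ranked 42 of 17557 genes by p but missed the threshold (adjusted p = 0.071, edgeR). By DESeq2 its adjusted p was 6.81e-05. The edgeR value rested on AnkGKO replicate 1: without it the log2FC was 0.605 (adjusted p = 0.566, edgeR), and without AnkGKO replicate 2 it was 1.09 (adjusted p = 0.0431, edgeR), with the remaining library then assumed to vary like the other groups. In DKO it was 0.47 (standard error 0.146, 1.39-fold, unadjusted p = 0.00764, adjusted p = 0.576, edgeR), close to the 0.51 of NFKO (standard error 0.146, 1.42-fold, adjusted p = 0.299, edgeR; adjusted p = 0.0427 by DESeq2). DKO thus stood 0.397 below AnkGKO on the log2 scale (standard error 0.161, unadjusted p = 0.0295, adjusted p = 0.552, edgeR), with every DKO library below both AnkGKO libraries, as in 11.3% of all genes. Leaving out 1 library put this log2FC between -0.628 and -0.135.

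DKO fell short of the sum of both single knockouts for Fcgr3 by 0.908 on the log2 scale (standard error 0.217, unadjusted p = 0.00131). This interaction did not pass edgeR's test (adjusted p = 0.125) and passed that of DESeq2 (adjusted p = 0.00381). Without control replicate 1 and NFKO replicate 1 the log2FCs were 0.495 in NFKO, 0.799 in AnkGKO and 0.401 in DKO, and none of them passed.

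Fcgr1 encodes the high-affinity receptor for immunoglobulin G. It was at 3.25, 4.17 and 3.36 CPM in control and at 4.78, 4.35 and 4.22 in NFKO, where every library lay just above the highest control library. Its log2FC in NFKO was 0.308 (standard error 0.175, adjusted p = 0.782, edgeR). The AnkGKO libraries held 3.80 and 3.48 CPM and the DKO libraries 2.89, 4.41 and 4.11. Both groups overlapped control, with log2FCs of 0.0165 and 0.0832.

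Fcgr4, the receptor that binds several subclasses of immunoglobulin G in the mouse, had 10 to 38 counts per library and the lowest level of all members. It was at 0.39, 0.423 and 0.238 CPM in control and 0.574, 0.520 and 0.650 in NFKO, again without overlap. It was at 0.351 and 0.587 CPM in AnkGKO and 0.280, 0.887 and 0.437 in DKO, both overlapping control. The highest of these, DKO replicate 2, was also the library with the most reads of monocyte and neutrophil genes, 106 CPM in sum against at most 35.4 in any other, and their part in its Fcgr4 value was not tested. Without it the log2FC in DKO was 0.0395 (adjusted p = 0.983, edgeR). The log2FCs were 0.724 in NFKO (standard error 0.427, adjusted p = 0.804, edgeR), 0.412 in AnkGKO and 0.598 in DKO, all with standard errors above 0.4. The biological coefficient of variation of Fcgr4 was 33.3%, at the percentile 85 among genes tested.

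Fcer1g, the shared ITAM chain of these receptors, was at 4.47, 7.53 and 5.43 CPM in control. It was at 8.28, 9.40 and 8.06 CPM in NFKO and 9.70 and 8.39 in AnkGKO, each above the highest control library. In DKO it was at 5.44, 9.69 and 8.34 CPM, with replicate 1 inside the control range. The log2FC against control was 0.56 in NFKO (standard error 0.22, 1.47-fold, unadjusted p = 0.0265, adjusted p = 0.547, edgeR) and 0.635 in AnkGKO (standard error 0.243, 1.55-fold, unadjusted p = 0.0232, adjusted p = 0.776, edgeR). In DKO it was 0.426 (standard error 0.22, adjusted p = 0.658, edgeR). Leaving out 1 library gave 0.404 to 0.793 in NFKO, 0.48 to 0.867 in AnkGKO and 0.242 to 0.654 in DKO. With the summed microglia genes as a covariate the log2FC of Fcer1g was -0.0165 in AnkGKO (adjusted p = 0.986, edgeR), 0.246 in NFKO and 0.00301 in DKO.

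The inhibitory receptor gene Fcgr2b overlapped control in all 3 knockouts. It was at 2.76, 4.13 and 2.55 CPM in control, 2.83, 3.83 and 2.81 in NFKO, 3.51 and 3.24 in AnkGKO and 2.24, 4.13 and 3.60 in DKO. Control replicate 2 and DKO replicate 2 were the highest of all libraries. Its log2FCs were 0.00296 in NFKO (standard error 0.25), 0.0986 in AnkGKO (standard error 0.279) and 0.0792 in DKO (standard error 0.25), none with an adjusted p under 0.95 in edgeR.

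**Figure D3:**
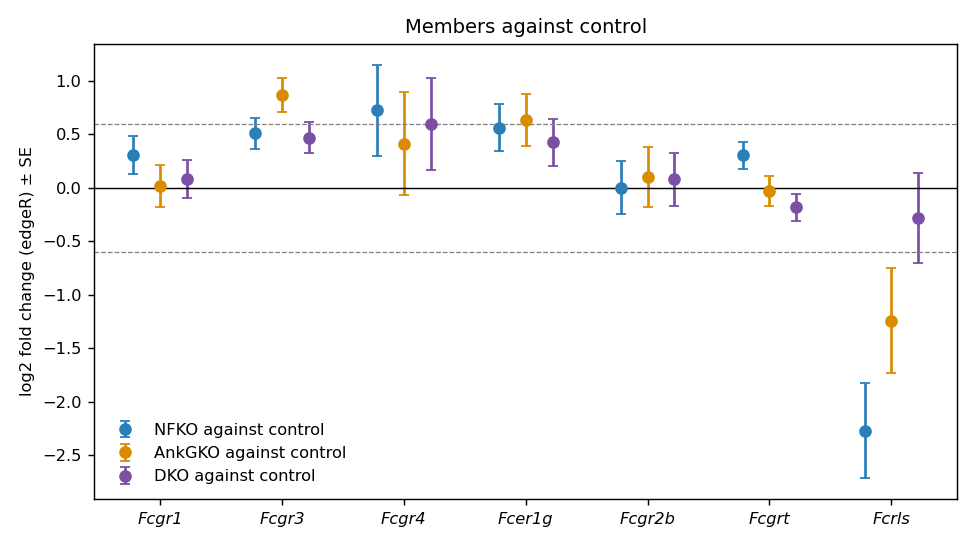
Log2FC of each member against control from edgeR, with error bars for the standard error, for NFKO, AnkGKO and DKO; dashed lines mark ±0.6. Fcgr3 and Fcer1g lie above 0 in all 3 knockouts, Fcgr2b lies near 0, and Fcrls lies at -2.27 in NFKO and -1.24 in AnkGKO.

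Fcgrt, which encodes the FcRn heavy chain, had the most reads of the members, 979 to 2066 per library, and the smallest biological coefficient of variation, 12%. It was at 25.4, 33.4 and 28.5 CPM in control, 30.7, 39.8 and 37.5 in NFKO, 30.3 and 26.7 in AnkGKO and 23.7, 29 and 24.4 in DKO. Every DKO library lay below every NFKO library, as in 10% of all genes, while each knockout overlapped control. The log2FC of DKO against NFKO was -0.486 (standard error 0.125, 1.4-fold lower, unadjusted p = 0.00229, adjusted p = 0.112, edgeR). DESeq2 gave an adjusted p of 0.00555 at a size below the 0.6 required.

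With the summed granule cell genes as a covariate in edgeR, that Fcgrt difference was -0.602 and passed (adjusted p = 0.0418), and without control replicate 1 and NFKO replicate 1 it was -0.588 (adjusted p = 0.0733). Against control, the log2FC of Fcgrt was 0.305 in NFKO (standard error 0.125, unadjusted p = 0.0316, adjusted p = 0.581, edgeR), -0.032 in AnkGKO and -0.181 in DKO. Leaving out 1 library gave -0.279 to -0.0745 in DKO. The interaction was -0.453 (standard error 0.187, unadjusted p = 0.0326, adjusted p = 0.428, edgeR).

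B2m, the partner of Fcgrt in FcRn, averaged 75.5 ± 8.86 CPM over the control libraries (SD, n = 3). The NFKO mean was 103 ± 15 (n = 3), the AnkGKO mean 86.1 ± 1.55 (n = 2) and the DKO mean 91.4 ± 5.83 (n = 3). The B2m log2FC was 0.442 in NFKO (standard error 0.107, adjusted p = 0.158, edgeR) and 0.276 in DKO (standard error 0.107, adjusted p = 0.619, edgeR). Alb, the gene of the FcRn cargo albumin, lay under the floor, with means of 0.0268 CPM for control and 0.0256 for NFKO.

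Fcrls had the widest relative spread of levels, from 2.75 to 19.6 CPM. It was at 17.6, 17 and 11.1 CPM in control, 3.10, 2.75 and 3.62 in NFKO, 6.19 and 6.67 in AnkGKO, and 4.78, 19.6 and 13.1 in DKO. All NFKO and AnkGKO libraries lay below the lowest control library, as 6.51% of all genes did in NFKO and 12.3% in AnkGKO. The DKO libraries were split, with replicate 1 between NFKO and AnkGKO and the other 2 inside or above the control range.

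The log2FC of Fcrls was -2.27 in NFKO (standard error 0.443, 4.81-fold lower), with an unadjusted p of 0.000703 that ranked 131 of 17557 genes and an adjusted p of 0.0942 by edgeR. In AnkGKO it was -1.24 (standard error 0.489, 2.36-fold lower, unadjusted p = 0.0325, adjusted p = 0.843, edgeR) and in DKO -0.281 (standard error 0.417, adjusted p = 0.884, edgeR). Fcrls was 1.99 higher in DKO than in NFKO on the log2 scale (standard error 0.44, 3.96-fold, unadjusted p = 0.0016, adjusted p = 0.0939, edgeR), where 9.32% of all genes had every DKO library above every NFKO library. The interaction was 3.23 (standard error 0.663, unadjusted p = 0.000973, adjusted p = 0.111, edgeR). DESeq2 passed 3 of these: NFKO against control (adjusted p = 0.000128), DKO against NFKO (adjusted p = 0.00103) and the interaction (adjusted p = 0.000351).

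Whether edgeR called Fcrls depended on which libraries and covariates entered the fit. The model shares 1 estimate of the spread over all genotypes, and that of Fcrls, a biological coefficient of variation of 35.8%, stood at the percentile 87.1 among genes tested. Without DKO replicate 1, Fcrls passed in NFKO at the same log2FC of -2.27 (adjusted p = 0.00088, edgeR), in DKO against NFKO at 2.37 (adjusted p = 0.00153, edgeR) and for the interaction at 3.61 (adjusted p = 0.00118, edgeR), and its DKO difference from control turned from -0.281 to 0.106. Without DKO replicate 2 it passed in NFKO (adjusted p = 0.0387, edgeR), and so it did in a fit of the control and NFKO libraries alone (adjusted p = 0.00247, edgeR; 0.421% of all genes were called in that fit). With the summed microglia genes as a covariate it passed in NFKO at -2.79 (adjusted p = 0.035, edgeR). Without control replicate 1 and NFKO replicate 1 the log2FC in NFKO was -2.14, and it did not pass (adjusted p = 0.852, edgeR).

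The levels were set beside 17 microglia genes fixed in a list, which holds none of the members, among them P2ry12, Tmem119 and Csf1r. Their summed level was 568 to 706 CPM in control, 670 to 733 in NFKO, 764 to 808 in AnkGKO and 610 to 785 in DKO, so that both AnkGKO libraries lay above all control libraries. Of the 17 genes, 0 were called in any comparison with control, 2 had an unadjusted p under 0.05 upward in NFKO, 7 in AnkGKO and 5 in DKO, and none did downward. Of all genes, 7.69%, 5.39% and 7.77% had such a p in either direction. The median log2FC of the 17 genes was 0.109, 0.314 and 0.217, against a median over all genes within 0.01 of 0.

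Relative to this sum, Fcrls stayed low in NFKO. Its CPM came to 3.09%, 2.40% and 1.86% of the microglia sum in control, 0.463%, 0.393% and 0.494% in NFKO, 0.766% and 0.873% in AnkGKO, and 0.784%, 2.55% and 1.67% in DKO. The mean log2 ratio minus that of control was -2.42 in NFKO and -1.55 in AnkGKO, both without overlap, and -0.684 in DKO, with overlap. Fcgr3 came to 1.28%, 1.33% and 1.27% of the sum in control, 1.59%, 1.58% and 1.75% in NFKO, 2.13% and 1.61% in AnkGKO, and 1.71%, 1.58% and 1.4% in DKO. Every knockout library was above control for Fcgr3 on this scale too, by 0.34, 0.517 and 0.268 in the mean log2 ratio for NFKO, AnkGKO and DKO.

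The other members moved less evenly against the microglia sum. Fcer1g was 0.417 higher in NFKO and 0.327 higher in AnkGKO in log2 ratio, both without overlap, and 0.212 higher in DKO, with overlap, whereas the fit with the microglia covariate gave -0.0165 in AnkGKO, as stated above. Fcgr4 was 0.592 higher in NFKO without overlap. The ratio of Fcgr1 was -0.316 against control in AnkGKO and that of Fcgrt was -0.367 in AnkGKO and -0.386 in DKO, each without overlap. In CPM all of these overlapped control, with log2FCs of 0.0165 for Fcgr1 and -0.032 for Fcgrt in AnkGKO and -0.181 for Fcgrt in DKO. Both AnkGKO microglia sums, the divisor here, lay above all control sums. The share of all genes without overlap on this scale was not counted. For Fcgr2b all 3 knockouts overlapped control. These ratios are a description with no test, and the part that the amount of microglia has in the differences was not tested.

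**Figure D4:**
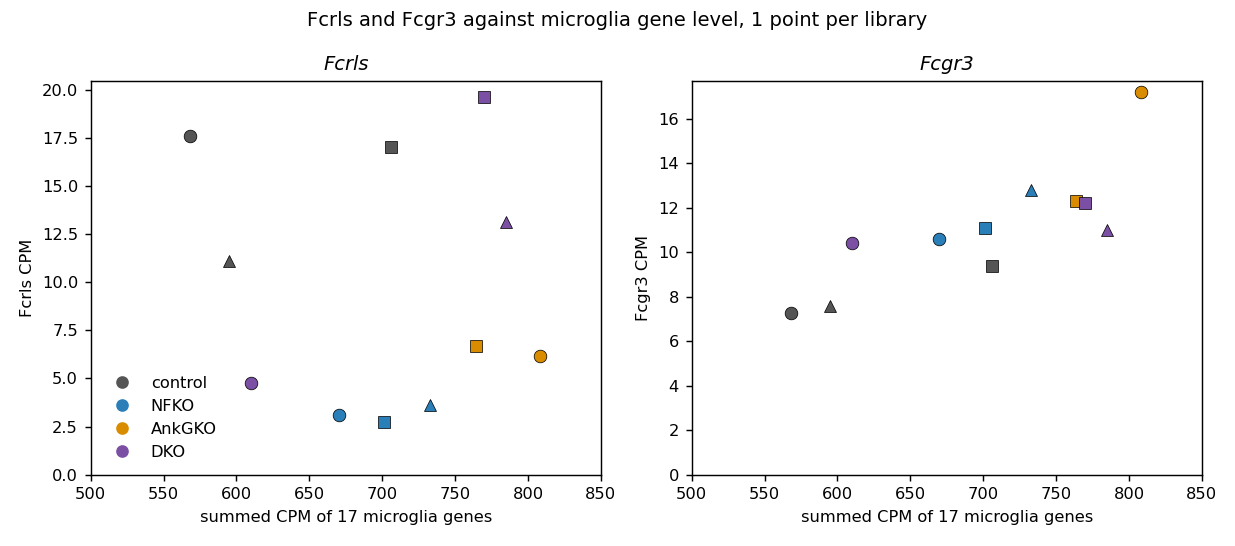
Level of Fcrls (left) and Fcgr3 (right), in CPM, against the summed CPM of 17 microglia genes, 1 point per library (colour for genotype; circle, square and triangle for replicate 1, 2 and 3). The 3 NFKO libraries lie at 670 to 733 CPM of microglia genes, within the span of the others, and have the lowest Fcrls; the highest Fcgr3, 17.2 CPM, is in the library with the highest microglia sum, 808.

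Lists of other myeloid cells that carry Fc receptors were checked as well. The 9 genes of border-associated macrophages summed to 20.1 to 39.5 CPM in control and 31.6 to 53.1 in NFKO, 20.7 to 31.2 in AnkGKO and 15 to 28.7 in DKO. The 10 monocyte and neutrophil genes summed to 6.36 to 18.9 CPM in control, 16.5 to 35.4 in NFKO, 8.58 to 15 in AnkGKO and 5.86 to 106 in DKO, where replicate 2 was the highest and the others were at most at 11.9. None of these 19 genes was called in any of the comparisons, and no marker of either list was at 3 counts or fewer in all libraries. B cell and plasma cell genes summed to at most 1.99 CPM in any library. Of the mast cell list, Ms4a2, the beta chain of the receptor for immunoglobulin E, had at most 3 counts in every library.

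Fcgrt is also an endothelial gene, and the 9 endothelial markers summed to 425 to 480 CPM in control, 429 to 520 in NFKO, 479 to 523 in AnkGKO and 415 to 445 in DKO. Of the 9, 8 were lower in DKO against NFKO and 9 in DKO against AnkGKO, as were 49.9% and 49.2% of all genes. In each of these comparisons 1 was called, and 1 was called lower for the interaction (smallest adjusted p of the list 0.0193, edgeR). The gene called was Kdr, which encodes a receptor of vascular endothelial growth factor. It averaged 18.4 ± 3.5 CPM over the control libraries (SD, n = 3), and the means were 24.8 ± 3.97 for NFKO (n = 3), 29.6 ± 6.5 for AnkGKO (n = 2) and 13.7 ± 1.58 for DKO (n = 3). Kdr fell in DKO against NFKO by 0.856 on the log2 scale (standard error 0.169, adjusted p = 0.0452, edgeR) and against AnkGKO by 1.11 (standard error 0.185, adjusted p = 0.0459, edgeR). The first of these is the comparison in which Fcgrt was at -0.486. In that comparison the 9 genes of border-associated macrophages were all lower too, as were 49.9% of all genes. Their median log2FC was -0.871, and 5 had an unadjusted p under 0.05 (edgeR), as had 16.2% of all genes. The part of endothelial cells or macrophages in the Fcgrt values was not tested.

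Genes around the receptors in the pathway were read from fixed lists. Of 10 other receptors of microglia that signal through ITAM chains and were tested, 1 was called, in AnkGKO: Clec7a, which encodes the beta-glucan receptor dectin-1, rose with a log2FC of 1.64 (mean 5.79 ± 2.08 CPM, SD, n = 2, against a control mean of 1.85 ± 0.615, n = 3; standard error 0.272, adjusted p = 0.0341, edgeR). Clec7a was at 7.26 and 4.32 CPM in AnkGKO, 2.38 to 3.08 in NFKO and 2.89 to 3.46 in DKO, against 1.48 to 2.56 in control. As with Fcgr3, AnkGKO replicate 1 was the highest library. In NFKO the median log2FC of these 10 genes was 0.843, with 9 above 0 (48.2% of all genes). Of these, 3 had an unadjusted p under 0.05 (edgeR), as had 7.69% of all genes in either direction.

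Downstream of the receptors, 0 genes of the other lists were called in the comparisons with control. Of 9 ITAM adaptors and proximal kinases tested, 8 lay above 0 in each of NFKO, AnkGKO and DKO, as did 48.2%, 48.7% and 49.8% of all genes. Their medians were 0.236, 0.263 and 0.184, and 1, 3 and 2 had an unadjusted p under 0.05 upward. Of all genes, 7.69%, 5.39% and 7.77% had such a p in either direction. Lyn, a kinase that phosphorylates both ITAMs and ITIMs, averaged 7.66 ± 0.353 CPM over control libraries and 9.02 ± 0.449 over NFKO libraries (SD, n = 3 each; log2FC 0.236, adjusted p = 0.636, edgeR). The 21 genes further downstream had medians of 0.132, 0.0775 and 0.23, 3, 1 and 3 had an unadjusted p under 0.05 upward, and 1 did downward in AnkGKO. Dock2, an activator of Rac, averaged 5.20 ± 0.19 CPM over control and 7.26 ± 0.679 over DKO libraries (SD, n = 3 each; log2FC 0.481, adjusted p = 0.427, edgeR).

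The 15 inhibitory phosphatases and ITIM receptors tested, which act beside Fcgr2b, had medians of 0.214, 0.211 and 0.234 in NFKO, AnkGKO and DKO, with 2, 1 and 3 at an unadjusted p under 0.05 upward. Dok2, an inhibitory adaptor, had means of 0.585 ± 0.0732 CPM for control and 1.03 ± 0.339 for NFKO (SD, n = 3 each; adjusted p = 0.521, edgeR). Among the 5 genes of the NADPH oxidase, which phagocytes use after Fc receptor engagement, Cybb, the catalytic subunit, had means of 1.76 ± 0.45 CPM for control, 4.51 ± 0.884 for NFKO and 3.60 ± 1.28 for DKO (SD, n = 3 each). Its log2FC of 1.35 in NFKO (standard error 0.301) had an adjusted p of 0.102 in edgeR, and the median of the 5 genes was 0.192.

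The other Fc receptor and Fc receptor-like genes were scarce. Of 13 on the list 7 were tested, and 0 were called in any comparison. Trim21, the cytosolic antibody receptor, was the one named among them at more than 1 CPM, with means of 3.65 ± 0.369 for control and 4.53 ± 0.342 for NFKO (SD, n = 3 each; log2FC 0.311, adjusted p = 0.664, edgeR). Fcrl1, a B cell gene, lay near the floor, with means of 0.163 CPM for control and 0.0502 for NFKO. For the ligands, 12 genes of immunoglobulin heavy and light chains were looked for, and 0 of them were among the genes listed, so that their levels could not be read. Syk was not analysed here.

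Promoters of the 7 members were searched for GAGGAAG, a core to which the macrophage factor PU.1 is known to bind, on both strands, because the members other than Fcgrt share myeloid expression. RefSeq promoters, whose table is on GRCm38.p6, matched all 7 symbols and were placed on GRCm39 by their sequence. In the 250 bases before the RefSeq start, 4 of 7 members held the letters, as did 10.4% of 27025 promoters. The matches are shown in 29 bases each, written in the direction of the gene, with the matched letters in capitals. They are on the other strand, as CTTCCTC, in Fcgr1 (chr3:96201324-96201352, first matched base at -56 from the start), Fcgr3 (chr1:170886962-170886990, at -7) and Fcgr4 (chr1:170846461-170846489, at -23), and on the gene's own strand in Fcrls (chr3:87170958-87170986, at -144).
Fcgr1: atggcaacttcCTTCCTCttttctaatct
Fcgr3: gagtccatttcCTTCCTCtttttgtagtt
Fcgr4: aaggctatttaCTTCCTCtcttctagtca
Fcrls: aagtctgtaaaGAGGAAGgacgtttgctt
Fcgr2b, Fcer1g and Fcgrt had no match in this window, which says nothing of sites elsewhere. The windows differ in what they hold, since GENCODE vM39 annotates exons over all 250 bases in Fcgr2b, Fcer1g and Fcgrt, 219 in Fcgr3, 177 in Fcrls, 53 in Fcgr1 and 29 in Fcgr4. The windows with and without a match are therefore not compared as promoters. A match is a description of letters, not a site.

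For each member at 1 CPM or more, the 13910 genes at that level were ranked by Pearson's r of log2(CPM + 0.5) over the 11 libraries, as a description in which all genes share the depth and tissue content of each library. Fcer1g was closest to Laptm5 (r = 0.97), Ptprc (r = 0.955) and Myo1f (r = 0.952), and among the members to Fcgr3 (r = 0.804), Fcgr1 (r = 0.75) and Fcgr2b (r = 0.719). Among the genes closest to Fcgr3 were Vwa1 (r = 0.933) and Slc11a1 (r = 0.907). Among those closest to Fcgr1 were Tpst1 (r = 0.896) and Igtp (r = 0.889), and Fcgr2b was closest to Unc93b1 (r = 0.903), Zfp512 (r = 0.894) and Gdpd2 (r = 0.89).

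Fcgrt and Fcrls had other partners. Fcgrt was closest to Crispld2 (r = 0.97), Col13a1 (r = 0.954) and Cxcl16 (r = 0.954). Fcrls was closest to Vars2 (r = 0.967), Them4 (r = 0.916) and Cyp2j12 (r = 0.91), and its r with the other 5 members at this level ran from -0.452 with Fcgrt to 0.324 with Fcgr2b. Them4 was at 34.5, 39.1 and 31.4 CPM in control, 23.7, 20.6 and 23.1 in NFKO, 22.3 and 22.2 in AnkGKO, and 25.1, 35.4 and 31.0 in DKO, with DKO replicate 1 again nearest to the single knockouts. Them4 was called lower in NFKO (log2FC -0.64, standard error 0.12, adjusted p = 0.0432, edgeR).

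Genes near the members were read last, and this choice was made after values had been seen. Within 2 Mb of Fcgr3, 17 of 67 other genes tested, which include Fcgr2b, Fcgr4 and Fcer1g, had an unadjusted p under 0.05 in NFKO against control and 19 in AnkGKO, beside the 7.69% and 5.39% of all genes given above. Around Fcrls these were 6 and 6 of 68 annotation entries, around Fcgr1 12 and 12 of 94, and around Fcgrt 8 and 10 of 144. In these 3 windows some genes have more than 1 entry, and each entry was counted. Among them is BC021767 near Fcgr1, which had an unadjusted p under 0.05 (edgeR) in both comparisons. Near Fcgr3, 1 gene was called in NFKO and in AnkGKO, Apoa2, which encodes an apolipoprotein and whose locus ends before that of Fcer1g begins. Apoa2 was at 0 to 0.0201 CPM in control and at 0 in all DKO libraries, and at 0.325, 0.424 and 0.353 in NFKO and 0.640 and 0.434 in AnkGKO. Near Fcgr1, 2 genes were called in NFKO, Them4 and Scnm1, and near Fcrls and Fcgrt 0 were called in either comparison.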

How the data were processed

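Per the labels and methods, the authors trimmed reads (Trimmomatic 0.39), aligned them to GRCm39 (STAR 2.7.11a) and deposited raw counts per gene for 11 libraries. The labels state single-end and the methods paired-end reads. A second deposited table holds normalized signal, the counts divided by 1 size factor per library, and was used only as an alternative for levels. The 5 summary lines of the count table were left out of library sizes and tests. Between 32.5% and 34.3% of reads in these lines and genes together were not uniquely mapped.

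Counts were fitted with edgeR 4.0.16 in R 4.3.3 (TMM, robust quasi-likelihood, 4 genotypes in 1 model, at least 10 counts over all libraries, Benjamini-Hochberg adjustment over 17557 genes, two-sided). DESeq2 1.42.0 was the alternative. The edgeR step was tested on simulated counts. Positions and transcript lengths came from GENCODE vM39. Members, lists and the rule for named genes (members, called list genes and up to 4 genes per list with the smallest p in NFKO, and the 3 genes closest to each member) were chosen with earlier results of these data known. Alternatives were another normalization, filters, only the genotypes compared, the replicate block, granule cell or microglia covariates, a microglia list of 12 genes, and each library left out. DESeq2 with a parametric fit and leaving out both libraries with clear cerebellar markers (control replicate 1 and NFKO replicate 1) were added after seeing the data.

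The labels number biological replicates without saying what a number stands for. Over 13910 genes, the deviations of control and NFKO libraries with the same number from their group means correlated (r = 0.597, 0.5 and 0.229). The r of 0.597 joins control replicate 1 and NFKO replicate 1, the libraries with clear cerebellar markers. Whether equal numbers are pairs is not known. The main fit did not pair libraries, and the replicate block, which treats equal numbers as matched in all genotypes, was an alternative. For AnkGKO and control r was -0.378 and -0.485, and for DKO and control -0.0999, 0.292 and -0.036. Nothing given says which mice shared a litter, and p-values measure the spread between libraries. Some genes that the rule for named genes selects are not reported here.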

Additional observations from a re-analysis of the deposited data

How the results depend on the processing

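The number of members called by edgeR, 0 of 7 in each comparison, became 1 in NFKO, 1 in AnkGKO, 1 in DKO against NFKO and 2 for the interaction with DESeq2 under either dispersion fit. It was 1 in NFKO with only the genotypes compared or the microglia covariate, and 1 in DKO against NFKO with the granule cell covariate. Leaving out each library in turn gave 0 to 1 in NFKO, AnkGKO, DKO against NFKO and the interaction, by the libraries named above, and 0 in the others. The microglia covariate took Fcrls in NFKO to -2.79 (adjusted p = 0.035, edgeR). Over all alternatives the adjusted p of Fcrls in NFKO ranged from 0.000128 to 0.852, and that of Fcgr3 from 0.0427 to 0.978 in NFKO and 6.81e-05 to 0.569 in AnkGKO.

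With the replicate block no member's call changed: Fcrls was at -2.26 and Fcgr3 at 0.51 in NFKO. Some log2 fold changes turned sign. For Fcgr2b these were, with the granule cell covariate, -0.00445 in NFKO and -0.0259 in DKO, with the microglia covariate -0.32, -0.564 and -0.359 in NFKO, AnkGKO and DKO, and without both libraries with clear cerebellar markers -0.0105 in NFKO and -0.0065 in DKO. For Fcgr1 they were, in AnkGKO, -0.00182 with the granule cell covariate, -0.399 with the microglia covariate and -0.0496 without both these libraries, and -0.189 in DKO with the microglia covariate. With that covariate Fcgr4 went from 0.412 to -0.243 and Fcer1g from 0.635 to -0.0165 in AnkGKO. The cause was not tested. Leaving out 1 library gave ranges of -0.16 to 0.253, -0.0321 to 0.346 and -0.107 to 0.322 for Fcgr2b in NFKO, AnkGKO and DKO, -0.0499 to 0.137 and -0.0365 to 0.245 for Fcgr1 in AnkGKO and DKO, -0.00028 to 0.736 for Fcgr4 and -0.127 to 0.078 for Fcgrt in AnkGKO, and -0.761 to 0.106 for Fcrls in DKO. Among the members, Fcgr4 has the fewest counts, 10 to 38 per library.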
